A study of Homo sapiens with 4 samples.

Results

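The genes described here are named antisense RNAs, 221 of the 57992 gene rows counted in a human leukaemia line after knockdown of PRMT9. A row was taken when its symbol ends in -AS1, when the part before -AS1 is itself the symbol of another row (called the sense gene here), and when its read counts over the 4 libraries sum to 100 or more. EPB41L4A-AS1 was left out. Membership goes by symbol alone. GENCODE release 29 types 150 of the 221 as antisense, 31 as processed transcript and 30 as long intergenic non-coding RNA. It types 4 as protein coding, 3 as transcribed unitary pseudogene and 2 as transcribed unprocessed pseudogene, and does not hold 1. All 221 are called antisense RNAs or members here. Of 1039 rows whose symbol ends in -AS1, 1023 have a sense gene in the table. Of those, 801 fell short of 100 counts, 347 of them listed at 0 in every library, and 5 further rows had 100 or more counts but no sense gene in the table. The members were thus chosen by their names and by counts added up over both groups, and the difference between the groups was not itself used. The sum can still be reached through 1 group. At their shCtrl counts in all 4 libraries 11 members would fall short of 100, of which 7 were called higher, and at their shPRMT9 counts 2 would, both called lower (CIRBP-AS1 and PCF11-AS1). Among these 11 are STXBP5-AS1, CYP4A22-AS1, ZMIZ1-AS1, SEPT7-AS1 and NAPA-AS1, whose entry rested on their level in shPRMT9. In the other 208 members 78 were called higher and 41 lower. Just inside the threshold lay PCF11-AS1 with 101 counts in all and VAC14-AS1 with 103, and just outside it lay CCNT2-AS1 with 99 and NDUFA6-AS1 with 98. Total counts of the members ran up to 147963, with a median of 441.

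The cells were MOLM13, a long-established human line from an acute myeloid leukaemia, with a KMT2A fusion, in a derivative that the labels call resistant to venetoclax, a BCL2 inhibitor. In the 2 shPRMT9 libraries the cells carry a short hairpin RNA (shRNA) against PRMT9, and the labels give the genotype as PRMT9 knockdown. In the 2 shCtrl libraries they carry a control hairpin, and the genotype is given as WT. Doxycycline, which switches the hairpin on, was given in all 4, so that no library shows cells without doxycycline or without a hairpin. The labels do not say which hairpin sequences were used, whether a group is 1 clone, for how long doxycycline was given, or whether libraries 1 and 2 are separate cultures, so p-values and SDs measure only the spread between these libraries. PRMT9 is an enzyme that methylates arginine residues, and the splicing factor SF3B2 is its best known substrate.

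Antisense RNAs are transcripts read from the DNA strand opposite to a named gene. Many of them start beside the start of the sense gene and run away from it, so that a single stretch of DNA serves as promoter in both directions. Others start inside or beyond the sense gene and run back across it, and their exons can then pair with the sense transcript. A large share of antisense RNA made at promoters is cut off early with the help of the Integrator complex and of the cleavage and polyadenylation machinery, while binding of the U1 small nuclear ribonucleoprotein protects longer transcripts. The nuclear RNA exosome then degrades most of what was made. Pairs of complementary transcripts can form double-stranded RNA, which the cell edits, cuts or senses. In the table, sense gene is only a name for the partner and says nothing of which transcript acts on the other.

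PRMT9 itself (chromosome 4, 147637785 to 147684230 on GRCh38) had 81 and 78 counts in the shPRMT9 libraries, against 398 and 406 counts in the shCtrl libraries. In CPM (counts scaled by library size with edgeR's TMM factors) this was 2.46 ± 0.227 in shPRMT9 and 13.7 ± 0.823 in shCtrl (SD, n = 2 libraries each), so that 17.9% of the control level remained (log2 fold change -2.48, SE 0.12, edgeR adjusted p = 1.13e-11). Library totals were 30764403 and 33845172 counts in shPRMT9, against 30329901 and 28592902 counts in shCtrl. Myeloid marker genes were present, and 9 of 12 were called higher and 3 lower in shPRMT9, with ITGAM at 109.7 and 108 CPM in shPRMT9 and 30.0 and 31.1 CPM in shCtrl, and LYZ at 939 and 946 CPM in shPRMT9 and 609 and 605 CPM in shCtrl. Genes listed as markers of other cells also moved with the groups. The summed level of 10 lymphoid markers was 53.7 to 53.9 CPM in shPRMT9 and 26.9 to 28.2 CPM in shCtrl, with 2 of the 3 tested members called higher, which were IL7R and NKG7, and with CD2 at 0 in every library. Over 11 genes listed as epithelial and stromal markers, the summed level was 277 to 280 CPM in shPRMT9 and 169 CPM in shCtrl. Of the 4 tested members 3 were called higher, PECAM1 and KRT8 among them, and COL3A1, EPCAM and KRT19 were at 0. Most of that sum was PECAM1, which is not particular to epithelial or stromal cells. PECAM1 had 239.7 and 244 CPM in shPRMT9 and 141 and 140.5 CPM in shCtrl. The 9 erythroid and megakaryocyte markers summed to 0.884 to 1.04 CPM in shPRMT9 and 0.423 to 0.430 CPM in shCtrl, with only ITGA2B tested and called higher, and HBA1, HBA2, HBB, PF4 and PPBP at 0. Their part in the results was not tested.

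Whether reads of an antisense RNA can be told from those of its sense gene depends on whether strand was used in counting, which is not given in the sources used here. It was therefore measured in the counts. In 188 rows whose exons lie to 95% or more under exons of an abundant gene on the opposite strand (50 CPM or more), the median total was 6 counts and 17.6% were listed at 0. In 169 rows covered in the same way by a gene on the same strand, 92.9% were listed at 0. Over 190 pairs of a row covered from the opposite strand and its covering gene, rows also covered on the same strand included, read density in the row was 0.591% of that of the gene at the median and 3.19% at the 90th percentile. Applied to the shared exon bases, the median would put over 5% of the reads of 10 members down to the sense strand, at most 18.1% (RAD21-AS1). The 90th percentile would do so for 39 members, and for 97.8% of the reads of RAD21-AS1, 77.8% of those of PCF11-AS1 and 51.1% of those of VIM-AS1, so that such shares are known only within this range. Of the 221 members, 75 share no exon base with their sense gene and 51 share none with any gene. Another 10 share 50% or more of their exon bases with the sense gene. Overlap alone does not set the expected share, which also depends on the level of the sense gene. In NAPA-AS1, one of these 10, it was 0.888% at the median and 4.80% at the 90th percentile. Only the named sense gene enters this estimate, so reads from other genes that share exons with a member are not covered.

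Antisense RNAs were mostly far less abundant than their sense genes. Levels are compared here in the authors' RPKM (read counts divided by library size and exon length), which takes gene length into account. The median over members was 1.21 RPKM, against 6.02 RPKM over the sense genes. Over the 200 pairs in which the sense gene passed the filter on low counts, the median ratio of antisense to sense RPKM was 0.158, and 56 of all 221 members lay above their sense gene. Together the members took 0.326% of the counts in each shPRMT9 library, against 0.285% and 0.278% in the shCtrl libraries. LRRC75A-AS1 alone took 0.133% in each shPRMT9 library, against 0.107% and 0.105% in the shCtrl libraries.

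More antisense RNAs were higher than lower after PRMT9 knockdown. All 221 passed the filter on low counts and were tested, and 128 of them were called at a Benjamini-Hochberg adjusted p below 0.05 over 15193 genes (edgeR's quasi-likelihood test). That is 57.9%, against 68.0% of all genes tested. Of the members, 85 rose (38.5%, against 33.4% of all genes) and 43 fell (19.5%, against 34.5% of all genes), while 93 were not called, with log2 fold changes between -0.64 and 0.66. DESeq2 called fewer members, 42 higher and 23 lower. The part of depth in the lower share of calls was not tested. Among members with 100 to 999 counts, 50.9% were called, against 53.3% of all genes with such counts, and among the 54 members with 1000 or more counts 79.6% were called, against 81.6% of all such genes. The groups did not overlap in 180 members (81.4%), against 83.3% of all genes. A rise of 2-fold or more was called in 23 of the 221 members, against 1514 of 15193 genes (9.97%), a similar share. A fall of 2-fold or more was called in 6 of the 221, against 571 of 15193 genes (3.76%).

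The median log2 fold change of the members was 0.20 (quartiles -0.24 and 0.60). It was -0.05 over the 200 tested sense genes and 0.00096 over all genes tested. The sizes of the changes were alike in the 3 sets, with a median of 0.42 for members, 0.37 for sense genes and 0.40 for all genes. In these bulk libraries, fewer cells that make an RNA and less of that RNA per cell cannot be told apart.

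Of the called members, 30 were named by rule, and all but 1 of these are described below with their values. Of the others, 66 rose by 0.13 to 1.53 on the log2 scale and 32 fell, PCF11-AS1 among them, with log2 fold changes between -1.28 and -0.15. At a mean under 1 CPM, 3 members were called at 2-fold or more, and they are named here after their values were seen. STXBP5-AS1 had 32 and 46 counts in shPRMT9, against 13 and 14 in shCtrl (log2 fold change 1.38, SE 0.34, edgeR adjusted p = 0.00175). CYP4A22-AS1 had 42 and 48 counts in shPRMT9, against 9 and 19 in shCtrl (log2 fold change 1.53, SE 0.35, edgeR adjusted p = 8.84e-04). CIRBP-AS1 had 17 and 18 counts in shPRMT9, against 40 and 37 in shCtrl (log2 fold change -1.28, SE 0.30, edgeR adjusted p = 0.00135). These 3 rest on few reads. They were named for large called changes, so the separation of their groups is not a separate result. Entry over the count threshold also rested on the level in shPRMT9 for STXBP5-AS1 and CYP4A22-AS1, and on that in shCtrl for CIRBP-AS1.

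**Figure D1:**
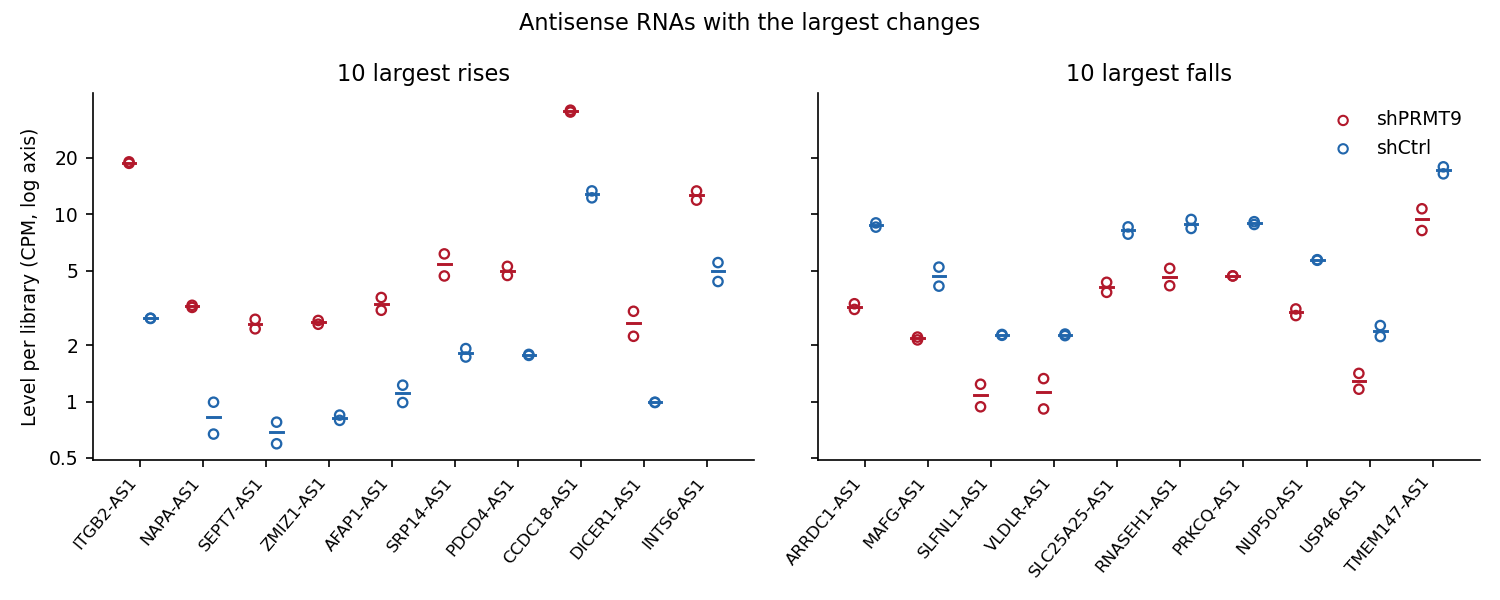
Level of antisense RNAs per library in CPM on a log axis, for the 10 called members with the largest rises (left) and the 10 with the largest falls (right) at a mean of 1 CPM or more. Circles are libraries (red shPRMT9, blue shCtrl) and bars are group means of 2 libraries. In all 20 genes both libraries of one group lie beyond both of the other, as in 83.3% of all genes tested. The 20 were chosen for large called changes, so their separation is not a separate result.

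The largest rise among members with a mean of 1 CPM or more was in ITGB2-AS1 (ENSG00000227039, chromosome 21, 44921051 to 44929678, plus strand), which lies inside ITGB2, the gene of the beta chain of leukocyte integrins. ITGB2-AS1 had 19.1 and 18.7 CPM in the shPRMT9 libraries, against 2.78 and 2.79 CPM in the shCtrl libraries. Both knockdown libraries stood far above both controls (log2 fold change 2.76, SE 0.10, edgeR adjusted p = 4.07e-13). ITGB2 had 667 and 662 CPM in the shPRMT9 libraries, against 277 and 279 CPM in the shCtrl libraries, and rose by 1.26 (SE 0.02, edgeR adjusted p = 1.86e-17). The 2 transcripts rose together but not equally, since the log2 ratio of antisense to sense CPM was -5.12 and -5.14 in shPRMT9 and -6.61 and -6.62 in shCtrl, a difference of 1.48 (SE 0.11, limma adjusted p = 1.43e-07). ITGB2-AS1 shares 12.4% of its exon bases with ITGB2, and 1.13% of its reads would come from the sense strand at the median density given above, and 6.09% at the 90th percentile.

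PDCD4-AS1 rose together with PDCD4, the gene of a tumour suppressor that binds the translation initiation factor eIF4A and holds back translation. The antisense RNA starts within 1000 bases of the PDCD4 start (chromosome 10, 110869868 to 110872233, minus strand) and shares no exon base with it. PDCD4-AS1 had 5.27 and 4.71 CPM in the shPRMT9 libraries, against 1.79 and 1.76 CPM in the shCtrl libraries (log2 fold change 1.49, SE 0.17, edgeR adjusted p = 5.66e-07). PDCD4 had 456 and 462 CPM in shPRMT9, against 232 and 240.5 CPM in shCtrl (log2 fold change 0.96, SE 0.02, edgeR adjusted p = 1.80e-15). Both genes were higher in both knockdown libraries, and the antisense RNA rose more, by 0.50 (SE 0.17, limma adjusted p = 0.0243).

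In 6 of the other 8 large rises the sense gene fell (SRP14 by a call that most other settings did not make), and 2 of these sense genes encode parts of the RNA processing machinery. DICER1 encodes the ribonuclease that cuts double-stranded RNA and microRNA precursors. DICER1-AS1 (chromosome 14, 95157645 to 95179933, plus strand) had 2.23 and 3.03 CPM in the shPRMT9 libraries, against 0.992 and 0.988 CPM in the shCtrl libraries, and rose by 1.42 (SE 0.24, edgeR adjusted p = 6.83e-05). DICER1 had 74.2 and 72.4 CPM in shPRMT9, against 101 and 98.2 CPM in shCtrl, and fell by 0.44 on the log2 scale (SE 0.03, edgeR adjusted p = 3.47e-09). INTS6 encodes a subunit of Integrator. INTS6-AS1 (chromosome 13, 51452367 to 51552364, plus strand), which runs out past the start of INTS6, had 13.3 and 11.9 CPM in shPRMT9, against 5.52 and 4.38 CPM in shCtrl, and rose by 1.34 (SE 0.12, edgeR adjusted p = 1.97e-08). INTS6 had 131 and 138 CPM in shPRMT9, against 169.6 and 168 CPM in shCtrl, and fell by 0.33 (SE 0.03, edgeR adjusted p = 2.68e-08). In both pairs all 4 libraries kept the groups apart for both genes, and the log2 ratio of the pair was higher in shPRMT9, by 1.78 (SE 0.24, limma adjusted p = 3.67e-05) for DICER1 and by 1.67 (SE 0.13, limma adjusted p = 2.41e-07) for INTS6.

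NAPA-AS1 lies opposite the 3′ part of NAPA, whose product alpha-SNAP takes apart SNARE complexes after membrane fusion. NAPA-AS1 (chromosome 19, 47484282 to 47501597, plus strand) had 101 and 108 counts (3.27 and 3.18 CPM) in shPRMT9, against 30 and 19 counts (0.992 and 0.670 CPM) in shCtrl (log2 fold change 1.94, SE 0.23, edgeR adjusted p = 1.07e-06). NAPA had 15.2 and 15.8 CPM in shPRMT9, against 22.2 and 21.7 CPM in shCtrl (log2 fold change -0.50, SE 0.07, edgeR adjusted p = 3.63e-06). NAPA-AS1 shares 52.2% of its exon bases with NAPA, the largest overlap among the 20 members in the plot of largest rises and falls, yet the 2 genes went in opposite directions. SEPT7-AS1 (current symbol SEPTIN7-DT) starts 316 bases upstream of SEPT7 (SEPTIN7), which encodes a filament-forming septin, and shares no exon base with it. SEPT7-AS1 (chromosome 7, 35751856 to 35800616, minus strand) had 85 and 83 counts (2.75 and 2.44 CPM) in shPRMT9, against 18 and 22 counts (0.595 and 0.776 CPM) in shCtrl (log2 fold change 1.92, SE 0.25, edgeR adjusted p = 3.61e-06). SEPT7 had 149.8 and 146 CPM in shPRMT9, against 183 and 185 CPM in shCtrl (log2 fold change -0.32, SE 0.03, edgeR adjusted p = 1.02e-08).

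Of the remaining large rises, that of CCDC18-AS1 is described with the pairs in opposite directions, and 3 had a sense gene that changed little or was hardly expressed. SRP14-AS1 (SRP14-DT, chromosome 15, 40039311 to 40067290, plus strand) starts beside SRP14, a gene of the signal recognition particle, and had 6.14 and 4.68 CPM in shPRMT9, against 1.92 and 1.73 CPM in shCtrl (log2 fold change 1.56, SE 0.19, edgeR adjusted p = 1.06e-06). SRP14 had 135 and 133 CPM in shPRMT9, against 141 and 143 CPM in shCtrl, a difference of -0.08 (SE 0.03, edgeR adjusted p = 0.0115). That small fall was not stable: with upper-quartile scaling the log2 fold change was 0.0037 (edgeR adjusted p = 0.913), and it was not called with a filter at a mean of 1 CPM (edgeR adjusted p = 0.102), with no filter (edgeR adjusted p = 0.0702), on log2(RPKM + 1) (limma adjusted p = 0.0559), by DESeq2 (adjusted p = 0.122) or in edgeR without shCtrl library 2 (adjusted p = 0.157) or without shPRMT9 library 2 (adjusted p = 0.0939). ZMIZ1-AS1 (chromosome 10, 78943328 to 79067895, minus strand) starts 1140 bases upstream of ZMIZ1, the gene of a transcriptional coregulator, and had 2.59 and 2.71 CPM in shPRMT9, against 0.794 and 0.847 CPM in shCtrl (log2 fold change 1.69, SE 0.23, edgeR adjusted p = 6.13e-06). ZMIZ1 had 154 and 163 CPM in shPRMT9, against 161 and 163 CPM in shCtrl, and the groups overlapped (log2 fold change -0.03, edgeR adjusted p = 0.413). AFAP1-AS1 (chromosome 4, 7754090 to 7778928, plus strand) had 3.07 and 3.59 CPM in shPRMT9, against 1.22 and 0.988 CPM in shCtrl (log2 fold change 1.59, SE 0.21, edgeR adjusted p = 4.65e-06). Its sense gene AFAP1, which encodes a protein that binds actin filaments, had 0 and 1 counts in shPRMT9 and 0 and 0 in shCtrl, so that the antisense RNA was measured here with almost no sense transcript beside it.

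The falls were smaller. Among members with a mean of 1 CPM or more ARRDC1-AS1 fell most, while ARRDC1, which encodes an arrestin-like protein of budding vesicles, was not called. ARRDC1-AS1 (chromosome 9, 137615332 to 137618906, minus strand) had 3.10 and 3.33 CPM in the shPRMT9 libraries, against 8.99 and 8.54 CPM in the shCtrl libraries (log2 fold change -1.44, SE 0.12, edgeR adjusted p = 1.59e-08). ARRDC1 had 18.5 and 18.5 CPM in shPRMT9, against 20.5 and 19.9 CPM in shCtrl (log2 fold change -0.13, SE 0.06, edgeR adjusted p = 0.0948). The test of the difference called the antisense RNA lower relative to ARRDC1 (difference -1.30, SE 0.13, limma adjusted p = 1.79e-06). PRKCQ-AS1 (chromosome 10, 6580419 to 6616452, plus strand) likewise fell next to a sense gene that was not called, PRKCQ, which encodes protein kinase C theta. PRKCQ-AS1 had 4.69 and 4.68 CPM in shPRMT9, against 9.13 and 8.82 CPM in shCtrl (log2 fold change -0.94, SE 0.11, edgeR adjusted p = 8.89e-07), and PRKCQ had 8.18 and 7.98 CPM in shPRMT9, against 7.61 and 7.73 CPM in shCtrl (log2 fold change 0.08, SE 0.10, edgeR adjusted p = 0.517). The 2 starts lie 118 bases apart and the transcripts share no exon base, and the log2 ratio was lower in shPRMT9 by 1.00 (SE 0.12, limma adjusted p = 9.09e-06).

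MAFG-AS1 (current symbol MILIP), beside the gene of a small MAF transcription factor, and VLDLR-AS1, beside the gene of the very low density lipoprotein receptor, fell more than their sense genes. MAFG-AS1 (chromosome 17, 81927829 to 81930753, plus strand) had 2.13 and 2.21 CPM in shPRMT9, against 4.13 and 5.22 CPM in shCtrl (log2 fold change -1.10, SE 0.17, edgeR adjusted p = 2.48e-05). MAFG had 84.8 and 85.6 CPM in shPRMT9, against 101 and 102 CPM in shCtrl (log2 fold change -0.25, SE 0.03, edgeR adjusted p = 1.79e-06). VLDLR-AS1 (chromosome 9, 2422702 to 2643359, minus strand) had 1.33 and 0.913 CPM in shPRMT9, against 2.25 and 2.29 CPM in shCtrl (log2 fold change -1.03, SE 0.24, edgeR adjusted p = 0.00104), and VLDLR fell by 0.31 (SE 0.04, edgeR adjusted p = 2.91e-06). On log2(RPKM + 0.1) without a filter VLDLR-AS1 was not called (-0.80, limma adjusted p = 0.0885). Both antisense RNAs had lower ratios to their sense gene in shPRMT9, with a difference of -0.82 for MAFG (SE 0.17, limma adjusted p = 0.00128) and of -0.70 for VLDLR (SE 0.25, limma adjusted p = 0.0285).

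The starts of some pairs lie so close that 1 short stretch of DNA lies upstream of both. RefSeq promoter windows (GRCh38.p14, 250 bases before to 50 after a start) were matched to 169 members and 180 sense genes, and in 47 pairs the antisense window holds the sense start, with a median of 118 bases between the starts. Of the pairs described here 6 are of this kind on RefSeq starts. Their sequences between the starts are shown because they are the stretches from which 2 transcripts diverge that moved together in 3 pairs and apart in the other 3, with an SRP14 fall that most other settings did not call. Each is printed 5′ to 3′ on the strand of the antisense RNA, with the sense start just before the first base and the antisense start just after the last. Capitals mark matches, on either strand, to the ETS motif CCGGAAG, the E2F motif TTCCCGC and the CCAAT box CCAAT. The TATA box TATAAA was searched too, and no match lies between these starts.
NUP50-AS1 (143 bases, chr22:45163782-45163924, minus strand): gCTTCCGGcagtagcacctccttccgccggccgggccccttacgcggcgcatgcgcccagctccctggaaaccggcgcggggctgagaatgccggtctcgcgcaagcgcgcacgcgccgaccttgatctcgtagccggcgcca
RNASEH1-AS1 (52 bases, chr2:3558334-3558385, plus strand): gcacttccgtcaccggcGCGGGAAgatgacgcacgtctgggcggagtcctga
USP46-AS1 (104 bases, chr4:52659302-52659405, plus strand): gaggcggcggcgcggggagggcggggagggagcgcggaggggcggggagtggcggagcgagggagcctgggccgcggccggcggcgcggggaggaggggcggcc
DICER1-AS1 (158 bases, chr14:95157530-95157687, plus strand): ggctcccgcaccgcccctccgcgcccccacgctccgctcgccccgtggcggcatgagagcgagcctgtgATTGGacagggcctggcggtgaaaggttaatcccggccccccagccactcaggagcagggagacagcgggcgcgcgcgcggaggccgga
SRP14-AS1 (108 bases, chr15:40039203-40039310, plus strand): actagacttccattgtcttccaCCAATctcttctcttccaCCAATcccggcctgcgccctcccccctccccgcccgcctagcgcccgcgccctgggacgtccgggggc
TMEM9B-AS1 (232 bases, chr11:8964443-8964674, plus strand): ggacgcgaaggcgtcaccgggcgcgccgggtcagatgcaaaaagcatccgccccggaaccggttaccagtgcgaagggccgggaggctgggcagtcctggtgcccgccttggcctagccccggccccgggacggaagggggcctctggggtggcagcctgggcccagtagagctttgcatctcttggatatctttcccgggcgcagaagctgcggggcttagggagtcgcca

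One ETS match lies between the NUP50 starts, 1 E2F match between the RNASEH1 starts, 1 CCAAT box between the DICER1 starts and 2 between the SRP14 starts. A match describes letters and not binding. Over whole windows of the 47 pairs, the ETS motif was found in 25.5%, against 10.7% of 27305 RefSeq promoter windows. The E2F motif was found in 8.51% of the 47, against 6.56% of all windows, the CCAAT box in 25.5%, against 35.7%, and the TATA box in 2.13%, against 12.0%. The CpG dinucleotide was also denser there, with a median of 31 per window, against 14 over all windows, and CpG density was not held equal in these shares.

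The first 3 of these pairs fell by nearly the same amount on both strands. NUP50 encodes a nucleoporin of the nuclear basket. NUP50-AS1 (NUP50-DT, chromosome 22, 45133020 to 45163781) had 2.88 and 3.12 CPM in shPRMT9, against 5.72 and 5.68 CPM in shCtrl (log2 fold change -0.92, SE 0.14, edgeR adjusted p = 1.61e-05). NUP50 had 91.5 and 95.5 CPM in shPRMT9, against 182 and 185 CPM in shCtrl (log2 fold change -0.97, SE 0.03, edgeR adjusted p = 2.72e-14). The log2 ratio, -4.96 and -4.91 in shPRMT9 and -4.98 and -5.01 in shCtrl, differed by 0.06 (SE 0.14, limma adjusted p = 0.728).

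RNASEH1 encodes ribonuclease H1, which degrades the RNA strand of RNA-DNA hybrids. RNASEH1-AS1 (RNASEH1-DT, chromosome 2, 3558492 to 3561745) had 5.14 and 4.15 CPM in shPRMT9, against 8.40 and 9.38 CPM in shCtrl (log2 fold change -0.94, SE 0.12, edgeR adjusted p = 3.70e-06). RNASEH1 had 13.7 and 14.8 CPM in shPRMT9, against 30.6 and 31.1 CPM in shCtrl (log2 fold change -1.11, SE 0.06, edgeR adjusted p = 9.41e-11). Groups were apart for both genes, while the ratio differed by 0.18 (SE 0.15, limma adjusted p = 0.31). USP46 encodes a deubiquitinating enzyme. USP46-AS1 (USP46-DT, chromosome 4, 52659406 to 52661668) had 36 and 48 counts (1.16 and 1.41 CPM) in shPRMT9, against 77 and 63 counts (2.55 and 2.22 CPM) in shCtrl (log2 fold change -0.88, SE 0.22, edgeR adjusted p = 0.00195), a fall that DESeq2 did not call (adjusted p = 0.0546). USP46 had 13.5 and 13.1 CPM in shPRMT9, against 22.6 and 25.9 CPM in shCtrl (log2 fold change -0.87, SE 0.08, edgeR adjusted p = 2.46e-08), and the ratio differed by 0.004 (SE 0.24, limma adjusted p = 0.99). A difference test that misses the threshold does not show that both strands changed equally, and its SE sets how closely that is known.

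TMEM9B-AS1 went the other way from TMEM9B, the gene of a transmembrane protein. TMEM9B-AS1 (chromosome 11, 8964675 to 8977527) had 61 and 57 counts (1.97 and 1.68 CPM) in shPRMT9, against 38 and 26 counts (1.26 and 0.917 CPM) in shCtrl (log2 fold change 0.73, SE 0.25, edgeR adjusted p = 0.0164). TMEM9B had 18.4 and 19.9 CPM in shPRMT9, against 30.2 and 30.3 CPM in shCtrl (log2 fold change -0.66, SE 0.06, edgeR adjusted p = 3.76e-08). The rise of TMEM9B-AS1 was not called by DESeq2 (adjusted p = 0.185) or on log2(RPKM + 0.1) without a filter (limma adjusted p = 0.0671), nor in edgeR without shCtrl library 2 (adjusted p = 0.0977) or without shPRMT9 library 1 (adjusted p = 0.114), while the ratio differed by 1.38 (SE 0.26, limma adjusted p = 5.89e-04).

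Over all pairs, the changes of the antisense RNA and of its sense gene were only weakly related. Of the 200 sense genes tested, 160 were called (80.0%), 73 higher and 87 lower. Both genes were called in 90 pairs, in the same direction in 54 (35 pairs rose and 19 fell) and in opposite directions in 36. In 26 of the 36 the antisense RNA rose and the sense gene fell, and in 10 it was the reverse. Pairs in the same direction made up 54 of 200 and pairs in opposite directions 36 of 200, against 26.5% and 20.1% of 3432 other opposite-strand gene pairs, whose bodies overlap or whose starts lie within 1000 bases. Among pairs with both genes called the share in the same direction was 60.0% for members and 56.9% for the others. In 25 pairs only the antisense RNA was called, in 70 only the sense gene, and in 15 neither. Across the 200 pairs, Pearson's r between the log2 fold changes was 0.18 and Spearman's rho 0.16, against 0.18 and 0.13 over the other 3432 pairs. These describe genes measured in the same 4 libraries, which are not independent replicates.

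**Figure D2:**
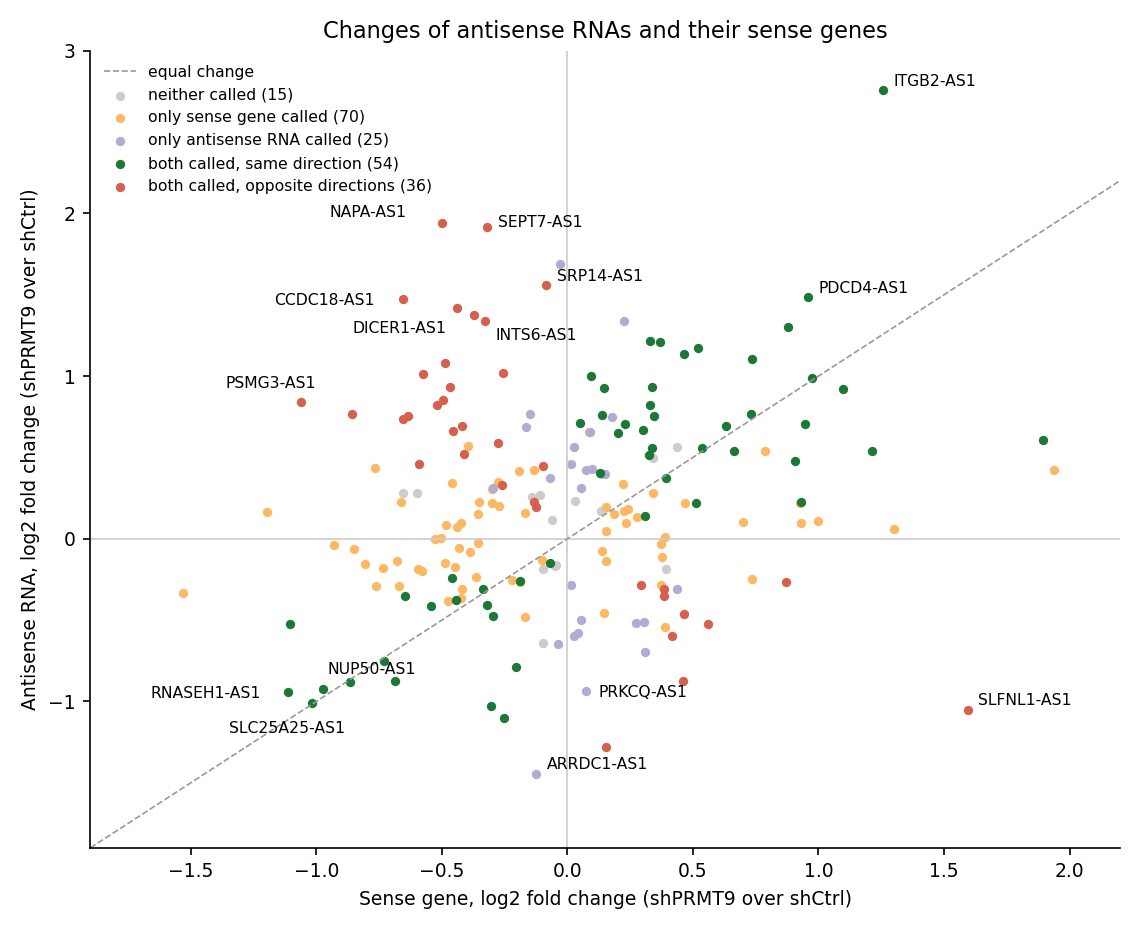
Log2 fold change (shPRMT9 over shCtrl) of each antisense RNA, vertical, against that of its sense gene, horizontal, for the 200 pairs with both genes tested. Points are pairs, coloured by which genes were called and in which direction, and the dashed line marks equal change. Pairs called in opposite directions (36) lie mostly in the upper left, where the antisense RNA was higher and the sense gene lower in shPRMT9.

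The difference between the 2 changes of a pair was tested directly, on the log2 ratio of antisense to sense CPM within each library, in which the scaling between libraries cancels. It passed the threshold in 112 of 200 pairs (56.0%), against 57.3% of all 3632 opposite-strand pairs in the fit. The ratio was higher in shPRMT9 in 77 of these pairs and lower in 35, and it differed by 2-fold or more in 37. All 36 pairs called in opposite directions were among the 112, with differences between 0.32 and 2.53 in size. In such pairs the 2 called changes add up in the difference, so their passing was largely set by the calls and is no further support. Of the 54 pairs called in the same direction 24 passed.

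The pairs with the largest changes on both sides in opposite directions were SLFNL1, PSMG3, IL12A, TMEM9B and CCDC18. PSMG3 encodes a chaperone of proteasome assembly. PSMG3-AS1 (chromosome 7, 1570073 to 1589626, plus strand) had 8.08 and 8.69 CPM in shPRMT9, against 4.40 and 5.01 CPM in shCtrl (log2 fold change 0.84, SE 0.12, edgeR adjusted p = 7.01e-06). PSMG3 had 11.1 and 10.9 CPM in shPRMT9, against 22.6 and 23.4 CPM in shCtrl (log2 fold change -1.06, SE 0.07, edgeR adjusted p = 6.55e-10). The log2 ratio was -0.45 and -0.33 in shPRMT9 and -2.34 and -2.21 in shCtrl (difference 1.89, SE 0.12, limma adjusted p = 3.85e-08), and 0.944% of the exon bases of PSMG3-AS1 are shared with PSMG3.

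CCDC18 encodes a coiled-coil protein, and CCDC18-AS1 starts past its end and runs back across it. CCDC18-AS1 (chromosome 1, 93262186 to 93346025, minus strand) had 36.0 and 35.1 CPM in shPRMT9, against 13.3 and 12.2 CPM in shCtrl (log2 fold change 1.47, SE 0.06, edgeR adjusted p = 2.28e-12). CCDC18 had 29.5 and 29.8 CPM in shPRMT9, against 43.8 and 49.7 CPM in shCtrl (log2 fold change -0.65, SE 0.06, edgeR adjusted p = 2.63e-08). Per length, the order of the 2 transcripts turned round. CCDC18-AS1 had 7.49 and 7.34 RPKM and CCDC18 5.23 and 5.28 RPKM in the shPRMT9 libraries, against 2.75 and 2.59 RPKM for CCDC18-AS1 and 7.67 and 8.93 RPKM for CCDC18 in the shCtrl libraries. The antisense RNA was thus the more abundant of the 2 in both knockdown libraries and the less abundant in both controls (difference in log2 ratio 2.12, SE 0.09, limma adjusted p = 1.11e-09). GABPB1 encodes a subunit of the ETS-family factor GABP. GABPB1-AS1 (chromosome 15, 50354959 to 50372202, plus strand) had 50.4 and 48.0 CPM in shPRMT9, against 28.2 and 27.4 CPM in shCtrl (log2 fold change 0.82, SE 0.05, edgeR adjusted p = 1.45e-10). GABPB1 had 34.0 and 33.9 CPM in shPRMT9, against 48.5 and 48.8 CPM in shCtrl (log2 fold change -0.52, SE 0.04, edgeR adjusted p = 1.64e-08). Antisense and sense RNA were at 2.92 and 2.79 and at 2.89 and 2.89 RPKM in the shPRMT9 libraries, against 1.62 and 1.61 and 4.08 and 4.22 RPKM in the shCtrl libraries. The pair was thus nearly level after knockdown and the antisense RNA lower in the controls, and the difference in log2 ratio, 1.34 (SE 0.06), had the lowest limma adjusted p among the member pairs, 1.01e-09.

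IL12A encodes the p35 chain of interleukin 12 and of interleukin 35, and IL12A-AS1 spans it. IL12A-AS1 (chromosome 3, 159913400 to 160225299, minus strand) had 11.2 and 11.7 CPM in shPRMT9, against 6.51 and 6.95 CPM in shCtrl (log2 fold change 0.77, SE 0.10, edgeR adjusted p = 2.05e-06). IL12A had 47 and 53 counts in shPRMT9, against 98 and 66 counts in shCtrl (log2 fold change -0.86, SE 0.22, edgeR adjusted p = 0.00214), a fall not called on log2(RPKM + 0.1) without a filter (-0.76, limma adjusted p = 0.0534).

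SLFNL1, a Schlafen-like gene, is the one of these 5 pairs with a falling antisense RNA and a rising sense gene, and both were scarce. SLFNL1-AS1 (chromosome 1, 41014590 to 41043890, plus strand) had 29 and 42 counts in shPRMT9, against 69 and 64 counts in shCtrl (log2 fold change -1.05, SE 0.23, edgeR adjusted p = 7.15e-04). SLFNL1 had 20 and 34 counts in shPRMT9, against 12 and 4 counts in shCtrl (log2 fold change 1.59, SE 0.46, edgeR adjusted p = 0.00612). On log2(RPKM + 0.1) without a filter neither was called, with -0.82 for SLFNL1-AS1 (limma adjusted p = 0.0709) and 0.85 for SLFNL1 (limma adjusted p = 0.19). The rise of SLFNL1 was not called by DESeq2 (adjusted p = 0.0854), nor in edgeR without shCtrl library 2 (adjusted p = 0.061) or without shPRMT9 library 2 (adjusted p = 0.0921). PCF11-AS1, at the count threshold, had the same arrangement of changes beside PCF11, which encodes a transcription termination factor. PCF11-AS1 had 19 and 19 counts in shPRMT9, against 38 and 25 counts in shCtrl (log2 fold change -0.87, SE 0.33, edgeR adjusted p = 0.0272), with 14.4% of its reads expected from the sense strand at the median density and 77.8% at the 90th percentile. PCF11 had 148 and 153 CPM in shPRMT9, against 108 and 111 CPM in shCtrl (log2 fold change 0.46, SE 0.03, edgeR adjusted p = 4.45e-10).

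**Figure D3:**
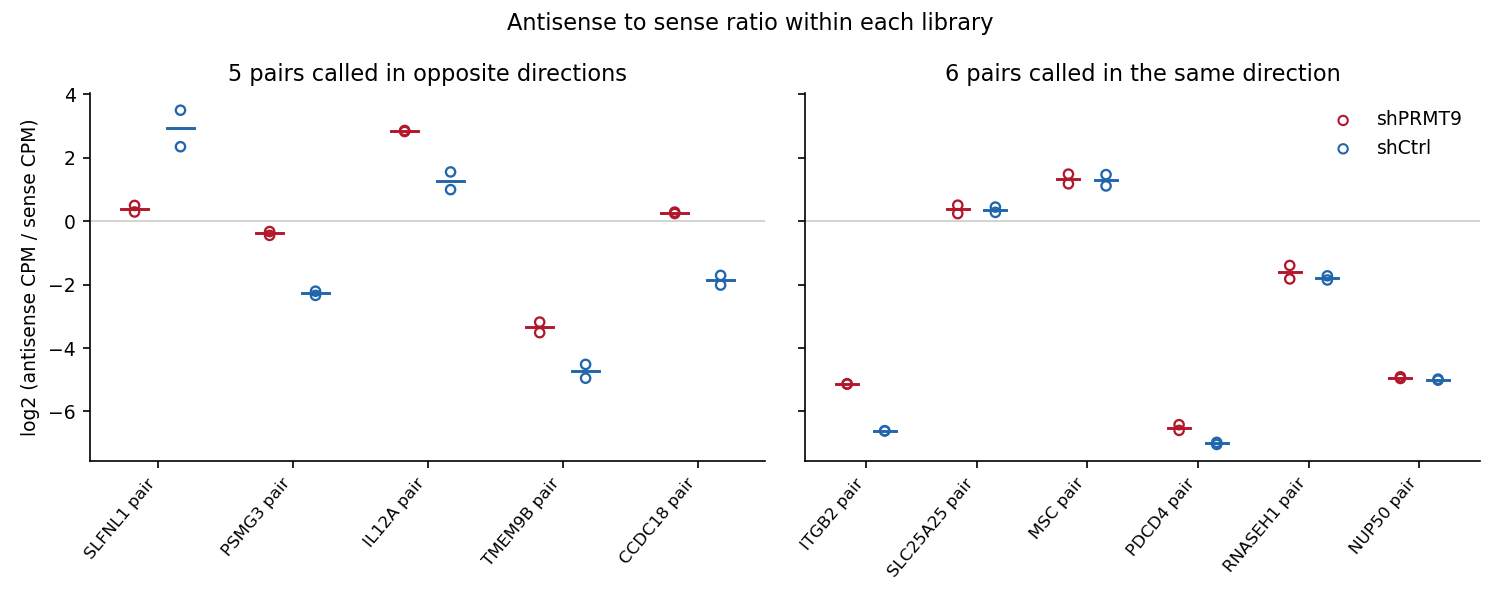
Log2 ratio of antisense to sense CPM within each library, for the 5 pairs with the largest changes called in opposite directions (left) and the 6 called in the same direction (right). Circles are libraries (red shPRMT9, blue shCtrl) and bars are group means of 2 libraries. On the left the groups are apart in every pair, and on the right they are clearly apart for ITGB2 and PDCD4. They lie close together for the other 4 pairs, though for NUP50 they do not overlap. The left pairs were chosen for called changes in opposite directions, so their separation follows largely from that choice.

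Among pairs that moved the same way, SLC25A25 and MSC are pairs whose starts lie over 1000 bases apart and whose ratio hardly differed between the groups. SLC25A25 encodes a mitochondrial carrier of ATP-Mg and phosphate. SLC25A25-AS1 (chromosome 9, 128108581 to 128118693, minus strand) had 4.33 and 3.83 CPM in shPRMT9, against 8.56 and 7.83 CPM in shCtrl (log2 fold change -1.01, SE 0.12, edgeR adjusted p = 1.25e-06). SLC25A25 had 3.04 and 3.24 CPM in shPRMT9, against 6.28 and 6.46 CPM in shCtrl (log2 fold change -1.02, SE 0.13, edgeR adjusted p = 3.33e-06), and the ratio differed by 0.01 (SE 0.15, limma adjusted p = 0.962). MSC encodes musculin, a basic helix-loop-helix transcription factor, and MSC-AS1 spans it. MSC-AS1 had 12.1 and 12.4 CPM in shPRMT9, against 6.51 and 5.86 CPM in shCtrl (log2 fold change 0.99, SE 0.10, edgeR adjusted p = 1.11e-07). MSC had 4.30 and 5.45 CPM in shPRMT9, against 2.31 and 2.68 CPM in shCtrl (log2 fold change 0.97, SE 0.17, edgeR adjusted p = 7.87e-05), with a difference of 0.04 (SE 0.18, limma adjusted p = 0.863). TMEM147-AS1, beside the gene of a membrane protein of the endoplasmic reticulum, fell with its sense gene too. It had 10.7 and 8.19 CPM in shPRMT9, against 17.9 and 16.4 CPM in shCtrl (log2 fold change -0.87, SE 0.10, edgeR adjusted p = 1.17e-06), and TMEM147 fell by 0.69 (SE 0.04, edgeR adjusted p = 3.14e-10).

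In 21 pairs the sense gene had between 0 and 30 counts in all and was not tested, so that the antisense RNA stood alone. Of these members 10 rose, by 0.13 to 1.59 on the log2 scale, 3 fell and 8 were not called. The 3 that fell were FGD5-AS1, NUTM2B-AS1 and ASB16-AS1, and the last 2 are named here after their values were seen. FGD5 encodes an exchange factor for the GTPase CDC42 of endothelial cells, and had 1 and 0 counts in shPRMT9 and 0 and 1 in shCtrl. FGD5-AS1 (chromosome 3, 14920347 to 14948424, minus strand) had 75.4 and 80.5 CPM in shPRMT9, against 89.4 and 85.7 CPM in shCtrl (log2 fold change -0.17, SE 0.04, edgeR adjusted p = 9.57e-04), and with upper-quartile scaling the fall was not called (-0.08, edgeR adjusted p = 0.0756), nor on log2(RPKM + 0.1) without a filter (limma adjusted p = 0.0666). NUTM2B-AS1 fell by 0.58 (SE 0.05, edgeR adjusted p = 5.36e-08) and ASB16-AS1 by 0.36 (SE 0.11, edgeR adjusted p = 0.00869).

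The most abundant members in CPM were LRRC75A-AS1, OIP5-AS1, CCDC144NL-AS1, FGD5-AS1 and TSPOAP1-AS1. LRRC75A-AS1 (current symbol SNHG29, chromosome 17, 16438822 to 16478678, plus strand) is a host gene of small nucleolar RNAs and had 349.7 and 351 RPKM in shPRMT9, against 281 and 285 RPKM in shCtrl. LRRC75A had 0.550 and 0.829 RPKM in shPRMT9, against 0.716 and 1.00 RPKM in shCtrl, far under the antisense RNA in every library. LRRC75A-AS1 rose by 0.31 (SE 0.02, edgeR adjusted p = 5.36e-11). LRRC75A was not called (log2 fold change -0.29, edgeR adjusted p = 0.227), but it was without shCtrl library 1 (-0.52, edgeR adjusted p = 0.0229) and without shPRMT9 library 2 (-0.63, edgeR adjusted p = 0.0494). OIP5-AS1, a long non-coding RNA known in zebrafish as cyrano (chromosome 15, 41283990 to 41309737, plus strand), had 199.7 and 210.4 CPM in shPRMT9, against 239 and 217 CPM in shCtrl, and was not called (log2 fold change -0.15, SE 0.05, edgeR adjusted p = 0.0516). The fall was called by DESeq2 (adjusted p = 0.00204), and in edgeR with RLE scaling (adjusted p = 0.00785) and with no filter (adjusted p = 0.00748). It was also called on log2(RPKM + 1) (limma adjusted p = 0.0377) and on log2(RPKM + 0.1) with the filter (limma adjusted p = 0.0354). The log2 fold change of OIP5-AS1 was -0.09 without shCtrl library 1 and -0.21 without shCtrl library 2. Its sense gene OIP5, which encodes a protein of the centromere licensing complex, had 6.11 and 6.39 CPM in shPRMT9, against 11.4 and 10.5 CPM in shCtrl (log2 fold change -0.81, SE 0.10, edgeR adjusted p = 1.78e-06). The ratio of OIP5-AS1 to OIP5 was thus higher in shPRMT9, by 0.65 (SE 0.11, limma adjusted p = 1.69e-04).

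TSPOAP1-AS1 and CCDC144NL-AS1 rose together with their sense genes. TSPOAP1-AS1 (chromosome 17, 58325450 to 58415766, plus strand) had 52.1 and 53.5 CPM in shPRMT9, against 28.7 and 31.2 CPM in shCtrl (log2 fold change 0.82, SE 0.05, edgeR adjusted p = 1.69e-10), but 61.3% of its exon bases are shared with exons of other genes. TSPOAP1, whose product binds the mitochondrial translocator protein, rose by 0.33 (SE 0.02, edgeR adjusted p = 2.53e-09), and the difference between both was 0.49 (SE 0.06, limma adjusted p = 2.12e-05). CCDC144NL-AS1 (chromosome 17, 20868433 to 21002276, plus strand) had 127 and 125 CPM in shPRMT9, against 114 and 115 CPM in shCtrl (log2 fold change 0.14, SE 0.03, edgeR adjusted p = 3.10e-04), a rise not called on log2(RPKM + 0.1) without a filter (limma adjusted p = 0.0581). CCDC144NL rose by 0.31 (SE 0.08, edgeR adjusted p = 0.00238), a call that DESeq2 did not make (adjusted p = 0.0786). CCDC144NL belongs to a family of near-identical copies, and 8.04% of its stretches of 50 bases occur in transcripts of other genes, against 2.02% in CCDC144NL-AS1, so that its counts are less certain. The same share was 10.96% in NAPA, 9.36% in NUP50 and 6.46% in RNASEH1.

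The place of the antisense RNA was set beside its direction. In 94 pairs the 2 starts lie within 1000 bases, in 48 the antisense RNA starts past the end of the sense gene, in 33 it starts inside and runs out past the sense start, in 22 it lies inside, in 21 it spans the sense gene, and in 3 the 2 do not overlap and start further apart. Over all members 38.5% rose and 19.5% fell, against 33.4% and 34.5% of all genes tested. No position was tested against these shares. Among pairs with near starts 38 of 94 members rose and 18 fell. Among those starting past the sense end 16 of 48 rose and 11 fell. Members running past the sense start rose in 12 of 33 cases and fell in 3. Members spanning the sense gene rose in 10 of 21 and fell in 3, while those inside it rose in 8 of 22 and fell in 7. Of pairs with near starts and both genes called, 32 moved the same way and 16 apart, so that 66.7% moved together. In all other positions 22 moved the same way and 20 apart (52.4%). In the other opposite-strand pairs of the table the shares were 59.6% with near starts and 54.5% with overlapping bodies. With all other positions pooled, near starts had the larger share in member pairs as in the others. Taken singly, the other classes were small and differed. Of members running past the sense start 7 moved with the sense gene and 3 apart, and of those inside it 5 and 8. The numbers were 7 and 6 for members starting past the sense end, and 3 and 3 for those spanning it. No test was made between positions.

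**Figure D4:**
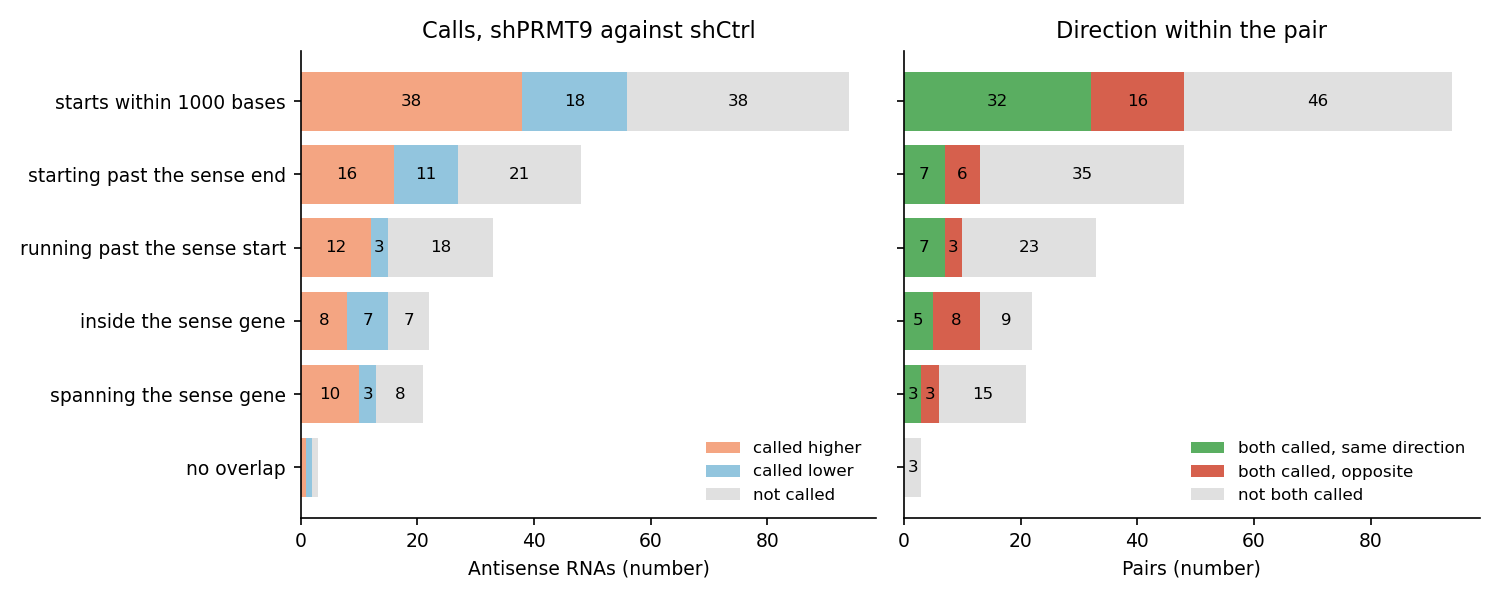
Number of antisense RNAs called higher, lower or not at all in shPRMT9 against shCtrl (left), and number of pairs with both genes called in the same or in opposite directions (right), by position of the antisense RNA relative to its sense gene. Bars are stacked numbers of the 221 members, and pairs whose starts lie within 1000 bases hold 32 of the 54 pairs that moved the same way.

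Genes of the machinery that removes or senses such RNAs were also measured. Of 23 tested genes of the nuclear exosome and of the adaptors that bring RNA to it, 20 fell, 2 rose and 1 was not called, with a median log2 fold change of -0.45. NCBP1, a cap-binding protein, had 97.6 and 99.2 CPM in shPRMT9, against 144 and 142 CPM in shCtrl (log2 fold change -0.54, SE 0.03, edgeR adjusted p = 3.68e-11). ZC3H18, which links the cap-binding complex to the exosome, had 58.3 and 56.5 CPM in shPRMT9, against 87.2 and 87.6 CPM in shCtrl (log2 fold change -0.61, SE 0.04, edgeR adjusted p = 1.17e-10). The 2 that rose were the exosome nuclease DIS3 (0.10, SE 0.03, edgeR adjusted p = 0.00271) and RBM7 of the exosome targeting complex (0.13, SE 0.05, edgeR adjusted p = 0.0326), chosen for naming once their values were known. Of 28 genes of Integrator and of the cleavage and termination machinery, 18 fell, 6 rose and 4 were not called (median -0.16). The lowest adjusted p-values belonged to NUDT21 and CPSF2, which encode cleavage and polyadenylation factors, and CPSF4, a further such factor named after its value was seen, fell by 0.91 too. NUDT21 had 122 and 124 CPM in shPRMT9, against 243 and 249 CPM in shCtrl (a fall by 0.998 on the log2 scale, SE 0.03, edgeR adjusted p = 4.65e-15), and CPSF2 had 71.1 and 75.3 CPM in shPRMT9, against 138 and 137 CPM in shCtrl (log2 fold change -0.91, SE 0.03, edgeR adjusted p = 2.91e-13).

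Of 6 genes of the U1 small nuclear ribonucleoprotein and its partners, 5 fell and 1 rose (median -0.20). SNRNP70, the U1 70K protein, fell by 0.21 (SE 0.03, edgeR adjusted p = 1.83e-06), and LUC7L, a U1 partner, by 0.36 (SE 0.04, edgeR adjusted p = 1.88e-06). Of 15 genes that edit, cut or sense double-stranded RNA, 10 rose, 4 fell and 1 was not called (median 0.74). The lowest adjusted p-values belonged to the oligoadenylate synthetases OAS2 and OAS1, interferon-induced sensors of double-stranded RNA, and OASL and OAS3, named here after their values were seen, rose by 3.46 and 3.28. OAS1 had 60.7 and 58.3 CPM in shPRMT9, against 6.35 and 6.49 CPM in shCtrl (log2 fold change 3.21, SE 0.06, edgeR adjusted p = 2.72e-16), and OAS2 rose by 4.17 (SE 0.05, edgeR adjusted p = 1.89e-18). The 4 that fell, named here after their values were seen, were DROSHA (-0.59), DICER1 (-0.44), ZNFX1 (-0.23) and the RNA editing enzyme ADAR (-0.20). These lists stand beside 33.4% of all genes called higher and 34.5% called lower, and whether their changes bear on the antisense RNAs was not tested.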

How the data were processed

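Messenger RNA libraries of 2 shPRMT9 and 2 shCtrl samples were analysed. Trizol extraction, an RNA integrity number above 8, a Kapa mRNA HyperPrep kit and a NovaSeq X are given per the labels' protocols. The authors deposited unnormalised read counts for each Ensembl gene, their RPKM values, and gene positions on GRCh38. The submitters' processing notes list Trimmomatic 0.39, STAR 2.7.2a and SAMtools 1.10, without saying what each was used for. How reads were counted, whether by strand, how reads with several map positions were treated, and which annotation release was used is not given in the sources used here.

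Counts were filtered with filterByExpr of edgeR 4.0.16 (minimum count 10, 15193 genes kept), scaled by TMM and tested with edgeR's quasi-likelihood test with a group term and robust estimation (R 4.3.3). The Benjamini-Hochberg adjustment ran over all 15193 genes, and genes with an adjusted p below 0.05 were called. Log2 fold changes are shPRMT9 over shCtrl. A pair's difference was tested with limma 3.58.1 (empirical Bayes with trend, robust) on the log2 ratio of antisense to sense CPM per library (prior count 2). The fit held 3632 opposite-strand pairs, members included. Their bodies overlap or their starts lie within 1000 bases, except in 3 member pairs outside that range. Where a sense symbol had several rows, the row on the member's chromosome with most counts was used. Gene types and exons came from GENCODE release 29, which holds 220 members and all 221 sense genes by identifier, and promoter windows from RefSeq. Positions are those of the deposited table. Both tests were checked on simulated counts. Of 50 genes simulated at each size, edgeR called 24 at 1.25-fold, 28 at 1.5-fold, 38 at 2-fold and 50 at 4-fold, and 8 of 14993 unchanged genes. The pair test called 34 of 43 pairs simulated to differ by 2-fold or more, and 2 of 3543 that did not differ. Changes of these smaller sizes can thus go uncalled.

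The members, gene lists and alternatives were chosen with earlier results of these data known. Named with values are PRMT9; the 10 largest called rises and falls at a mean of 1 CPM or more; the 5 most abundant members; 6 pairs each in opposite and in the same direction with the largest smaller change of the pair (the sixth in opposite directions is not reported here); the 6 pairs with the lowest adjusted p of the difference; the genes beside the count threshold; and up to 2 called genes per list. Alternatives were other scalings and filters, DESeq2 1.42.0, limma-voom, stricter calls, log2(RPKM + 1) and log2(RPKM + 0.1), a replicate block, leaving out each library, and narrower choices of members. Same-numbered libraries did not deviate together (correlation -0.031), so the numbers were not taken as pairs.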

Additional observations from a re-analysis of the deposited data

How the results depend on the processing

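Depth limits these results: 167 of the 221 members have 100 to 999 counts in all, and 2 libraries a group leave 2 residual degrees of freedom. Of 61 named genes recomputed under 14 settings, 815 values kept their call, 28 lost it, 9 gained it and 1 reversed (SRP14 with upper-quartile scaling, 0.0037), with SLFNL1 untested at a mean of 1 CPM or more. Members that rose and fell numbered 85 and 43 in the main test. They numbered 42 and 23 with DESeq2, 30 and 9 against a fold of 1.5, and 43 and 24 on log2(RPKM + 0.1) without a filter. Shares over all genes under these settings are not given here. In the main test large rises outnumbered large falls over all genes too, with 1514 called at 2-fold or more higher and 571 lower. With at least 400 counts 50 rose, and among the 51 members with no exon base shared with any gene 17 rose and 11 fell. Sense genes numbered 18 higher and 17 lower against a fold of 1.5, 37 and 51 at 400 counts, and 12 and 23 with no shared exon base. Pairs in the same and in opposite directions (54 and 36) numbered 23 and 12 with DESeq2, 34 and 23 at an adjusted p below 0.01, 9 and 2 against a fold of 1.5, 22 and 17 on log2(RPKM + 0.1) without a filter, and 15 and 6 with no shared exon base, and 19 were opposite at 400 counts. The difference test (112 pairs) passed in 27 against a fold of 1.5, 64 on log2(RPKM + 0.1) without a filter, 73 at 400 counts and 25 with no shared exon base. The members' median log2 fold change (0.20) was 0.29 with upper-quartile scaling, which moved the median of all genes by 0.09, 0.23 at a mean of 1 CPM or more, 0.10 on log2(RPKM + 1), 0.19 on log2(RPKM + 0.1) with or without a filter, 0.15 at 400 counts, 0.22 with no shared exon base, and 0.18 to 0.22 with each library left out. The smaller numbers at 400 counts and with no shared exon base are over fewer members. For the other settings the cause was not tested. Leaving out a library, with the lone library of its group assumed to vary like the others, gave 62 to 77 rises and 29 to 39 falls. The share of rises among called members was 66.4% in the main test and 75.2% with upper-quartile scaling. That scaling moved all genes upward, and the share over all genes under it is not given here.

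With the replicate number as a block 82 members rose and 42 fell, 52 pairs moved the same way and 35 apart, 115 passed the difference test, the median was 0.20, and no named gene changed its call. The pair difference was not run with DESeq2 or limma-voom.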
